A study of Mus musculus with 8 samples.

Results

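Presentation of peptides by MHC class I was followed through B-cell development in 10 genes of the mRNA table, out of 22298 genes in all. They were taken by symbol, and all 10 were found, each in 1 row. They encode the classical heavy chains H2-K1 (ENSMUSG00000061232) and H2-D1 (ENSMUSG00000073411), the non-classical heavy chains H2-T23 (ENSMUSG00000067212) and H2-Q7 (ENSMUSG00000060550), the light chain B2m (ENSMUSG00000060802), the peptide transporter Tap1 (ENSMUSG00000037321) and Tap2 (ENSMUSG00000024339), the loading proteins Tapbp (ENSMUSG00000024308) and Calr (ENSMUSG00000003814), and the transactivator Nlrc5 (ENSMUSG00000074151). The cells came from the bone marrow of wild-type female C57BL/6 mice aged 8 to 10 weeks and were sorted into 4 stages. Every gate took B220+ cells, the mature gate those with high B220. IgM was absent from the pro-B and pre-B gates and present in the immature and mature ones, while CD43 was present in the pro-B gate alone. No agent or altered allele was used. Each stage gave 1 rRNA-depleted RNA library from the cells of 3 pooled mice, so no comparison below has a replicate check and no p-value is given.

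MHC class I molecules display peptides from a cell's own proteins to CD8 T cells and NK cells. A heavy chain folds with B2m in the endoplasmic reticulum. TAP1 and TAP2 form the pump that brings in peptides cut by the proteasome, and tapasin (Tapbp) and calreticulin (Calr) hold the empty molecule at the pump until a peptide binds. NLRC5 is recruited by DNA-binding factors to the class I promoters, as CIITA is to the promoters of the class II genes. Class II molecules present peptides to CD4 T cells and mark professional antigen-presenting cells, mature B cells among them, whereas class I is carried by nearly all nucleated cells.

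The promoters of 4 of these genes are shown because they share a row of short elements, in the same order and at nearly the same distances. RefSeq promoters (GRCm38.p6, 250 bases before to 50 after each annotated start) were at hand for 8 of the 10 genes, with Tap2 and Nlrc5 not analysed. Capitals mark, from 5′ to 3′ on the gene's strand, GGGATTCCC (an NF-kB element), TTTCACTTC (the reverse strand of GAANNGAAA, the interferon response element bound by IRF factors), TGACG (the core of the X2 element, bound by CREB and ATF factors) and ATTGG (the reverse strand of CCAAT, the Y element bound by NF-Y). In B2m only the last pair was found in that arrangement.
H2-K1 (chr17:34000351-34000465, - strand): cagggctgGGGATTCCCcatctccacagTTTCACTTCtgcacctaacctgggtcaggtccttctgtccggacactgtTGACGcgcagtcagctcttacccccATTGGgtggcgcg
H2-D1 (chr17:35262916-35263030, + strand): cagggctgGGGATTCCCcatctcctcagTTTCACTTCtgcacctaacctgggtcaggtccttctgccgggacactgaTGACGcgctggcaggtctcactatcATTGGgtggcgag
H2-Q7 (chr17:35439015-35439127, + strand): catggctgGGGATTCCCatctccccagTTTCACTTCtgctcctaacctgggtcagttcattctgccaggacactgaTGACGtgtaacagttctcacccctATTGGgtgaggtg
B2m (chr2:122147601-122147646, + strand): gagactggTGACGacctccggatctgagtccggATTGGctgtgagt

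In H2-K1 and H2-D1 the starts of the elements lay 20, 49 and 25 bases apart, and in H2-Q7 19, 49 and 24 bases apart. B2m had TGACG and ATTGG 25 bases apart. The H2-K1 and H2-D1 windows were alike at 103 of 115 bases (89.6%). Searched on both strands, with no marked element overlapping another in these windows, GGGATTCCC was in the promoters of 3 of the 8 genes (H2-K1, H2-D1 and H2-Q7) and in 0.353% of the 32851 promoters of the table. GAANNGAAA was in the same 3 and in 7.52% of all promoters. TGACG alone was in 5 of the 8 and in 20.8% of all, and CCAAT in 8 of the 8 and in 37.4% of all. TGACG followed by ATTGG with starts 24 to 25 bases apart, a spacing chosen after these sequences had been read, was in 0.0791% of all promoters (26 entries from 22 genes), among them these 4 genes and the class I-like H2-M3. These matches describe the letters only.

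From the earliest to the latest stage, the mRNA table held totals of 867920, 240231, 223495 and 849350 estimated counts. Levels are therefore given as CPM, the count scaled to a total of 1000000 in each library, with 95% exact intervals that cover counting error alone. B lineage markers were present in every library, with Pax5, the factor that commits cells to the B lineage, between 203 and 1663 counts. Dntt, the terminal transferase of V(D)J joining, and Igll1 and Vpreb1 of the surrogate light chain had 845, 427 and 318 counts in pro-B and between 0 and 2 elsewhere. Fcer2a (CD23) had 357.55 counts in mature B and 0 elsewhere. Markers of other cells were also counted. The 7 T and NK cell genes summed to 178 counts at the pro-B stage, with Cd3e and Cd3d at 0 there, and to 2, 0 and 5 counts at the later stages. The 5 plasmacytoid dendritic cell genes summed to 807, 1037, 1593 and 352 CPM, most of it Ly6d after the pro-B stage, while Siglech had 105, 0, 4 and 0 counts in the same order and Bst2 259, 18, 40 and 38. The 8 myeloid genes summed to between 1151 and 1511 CPM in each library, with Csf1r at 0 throughout, the 5 erythroid genes to between 213 and 410.2 CPM, and the 3 plasma cell genes to between 41.2 and 142 CPM. In such bulk libraries, fewer cells of a type and less RNA per cell cannot be told apart.

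Summed over the 10 genes, the class I presentation machinery stayed between 3476 and 4596 CPM. The sum was 4256 CPM (4120.0 to 4396) in the pro-B, 3476 CPM (3244 to 3720) in the pre-B, 3784 CPM (3535 to 4049) in the immature B and 4596 CPM (4453 to 4743) in the mature B library. That was 0.817-fold (0.757 to 0.881) from pro-B to pre-B, 1.09-fold (0.989 to 1.20) from pre-B to immature B, 1.21-fold (1.13 to 1.31) from immature to mature B, and 1.08-fold (1.03 to 1.13) from pro-B to mature B. In the FPKM deposited by the authors, the first and the third of these folds were 0.232 and 4.45. H2-K1, H2-D1 and B2m made up most of the sum in each library. Of the other members, H2-Q7, Tap2, Calr and Nlrc5 passed a 2-fold difference in CPM at some step, while H2-T23, Tap1 and Tapbp did not.

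The threshold of 2-fold is the one the study set on a log2 scale. A gene counted as called at 2-fold or more in CPM, with counts under 3 raised to 3, if it had at least 10 counts in 1 of the 2 libraries compared, and all 10 genes met that minimum in each comparison. From pro-B to pre-B, 3 of the 10 were lower (H2-Q7, Tap2 and Calr) and 0 higher, where 29.2% of the 9152 genes tested were lower and 14.8% higher. From pre-B to immature B, 1 was higher (Tap2) and 1 lower (Nlrc5), against 18.9% and 20.2% of 5838 genes. From immature to mature B, 2 were higher (Tap2 and Nlrc5) and 0 lower, against 24.2% and 18.1% of 8363 genes. Between the first and the last stage, 0 were higher and 1 was lower in mature B (H2-Q7), against 13.2% and 24.2% of 9634 genes. The shares of the 10 genes called were near those of all genes or below them. The median log2 fold of the 10 was -0.39, 0.08, 0.28 and 0.07 in these comparisons, beside -0.37, -0.02, 0.19 and -0.19 for all genes tested.

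**Figure D1:**
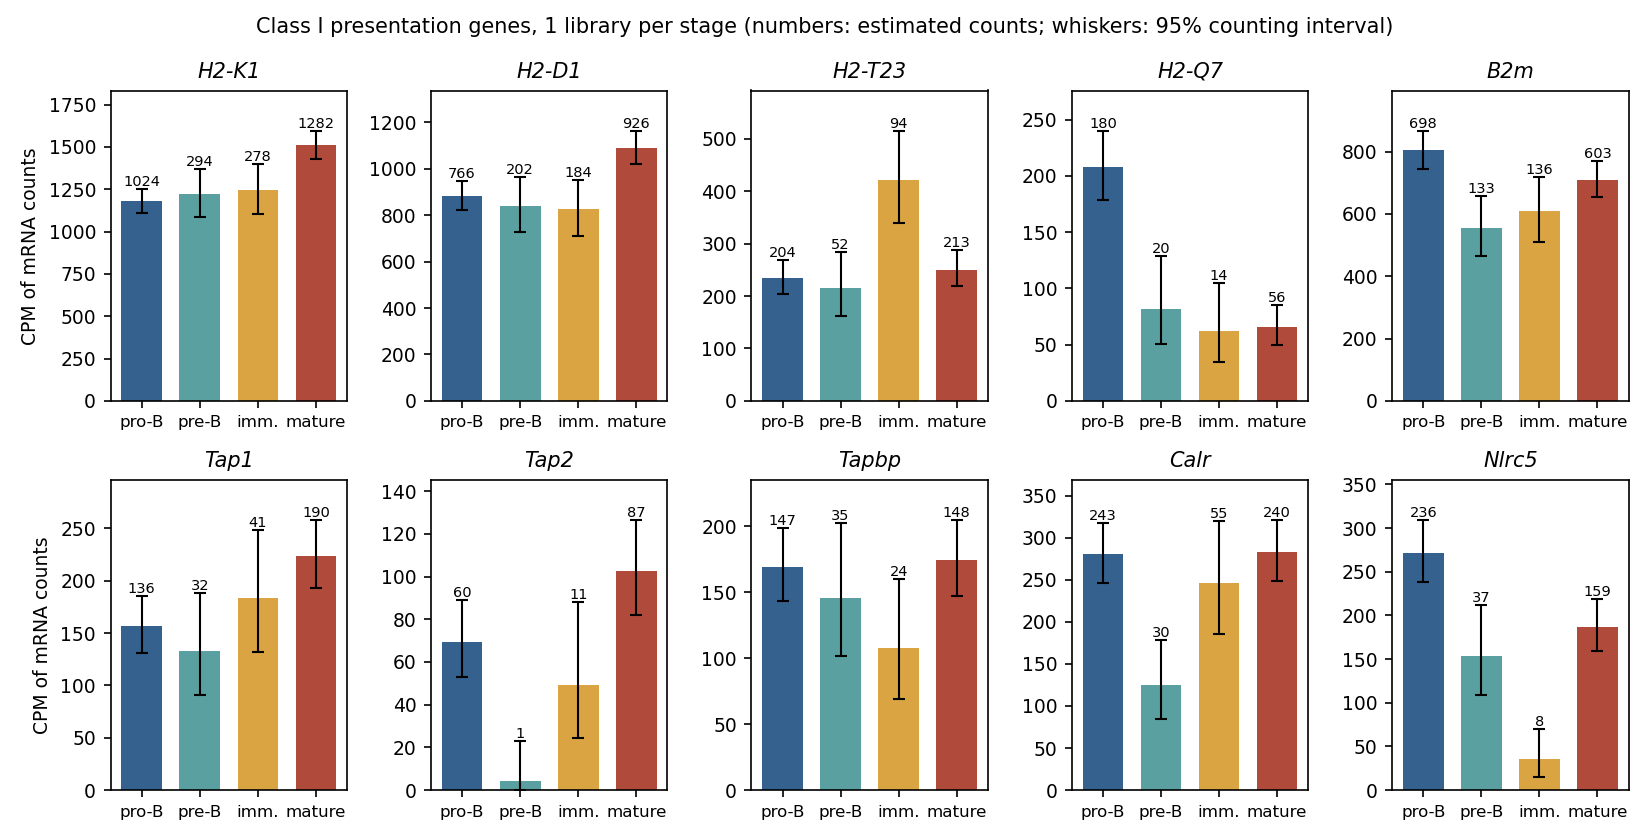
Level of each of the 10 genes in the 4 libraries, as CPM of the mRNA counts (each panel has its own axis from 0). Bars are 1 library per stage, whiskers its 95% counting interval, and the number above each bar the estimated count. H2-K1, H2-D1 and B2m stay within 1.5-fold across the stages, H2-Q7 stands highest in pro-B cells, H2-T23 in immature B cells, and Tap2 and Nlrc5 drop to 1 and 8 counts in the pre-B and the immature B library. The split of reads between H2-Q7 and H2-Q6 is uncertain.

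In CPM, the classical heavy chains varied little. H2-K1 had 1024, 294, 278 and 1282 estimated counts from the pro-B to the mature stage, which were 1179.9, 1224, 1244 and 1509.8 CPM. Its first 3 stages could not be told apart by counting error, at 1.04-fold (0.908 to 1.18) from pro-B to pre-B and 1.02-fold (0.860 to 1.20) from pre-B to immature B. The mature B library stood above the immature one by 1.21-fold (1.07 to 1.39), which is under the 2-fold threshold. H2-D1 had 766, 202, 184 and 926 counts, or 882, 839.6, 825 and 1091 CPM. Its first 3 stages lay within counting error too, at 0.952-fold (0.812 to 1.11) and then 0.983-fold (0.797 to 1.20), with mature B 1.32-fold (1.13 to 1.56) above immature B and 1.24-fold (1.12 to 1.36) above pro-B. In the deposited FPKM neither gene was level, with H2-K1 2.97-fold down from pro-B to pre-B and 4.77-fold up from immature to mature B. H2-D1 was 4.09-fold down and 4.90-fold up in the same FPKM comparisons.

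H2-T23 encodes the heavy chain of Qa-1, which shows leader peptides of other class I chains to the NK receptor CD94/NKG2A. It had 204, 51.9, 94.3 and 213 counts, or 235, 216, 422 and 250.4 CPM. The immature B library stood apart, 1.96-fold (1.37 to 2.78) above pre-B and 1.69-fold (1.302 to 2.15) above mature B, both under the threshold. The other 3 stages lay within their counting intervals, with 0.920-fold (0.666 to 1.25) from pro-B to pre-B and 1.07-fold (0.876 to 1.299) from pro-B to mature B.

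H2-Q7, a heavy chain of the Qa-2 antigen, was the 1 member at least 2-fold lower in mature B than in pro-B. In CPM, Nlrc5 and B2m were lower there by less. H2-Q7 had 180, 19.6, 13.8 and 55.6 counts, or 208, 81.5, 61.8 and 65.5 CPM. From pro-B to pre-B it fell 2.55-fold (1.57 to 4.18), and mature B stood 3.17-fold (2.32 to 4.33) below pro-B. The 3 later stages could not be ordered, with 0.759-fold (0.352 to 1.57) from pre-B to immature B and 1.06-fold (0.578 to 2.05) from immature to mature B. H2-Q7 has near-identical neighbours in the Q region of the H2 complex, and reads shared among them may be assigned to either, so its value is uncertain. H2-Q6, one of them, had 67.8, 67.1, 43.4 and 36.1 counts. H2-Q8 and H2-Q9, also sought, were not in the mRNA table, so the pair of H2-Q6 and H2-Q7 does not cover them. H2-Q7 took 72.7% (66.6 to 78.0) of the counts of the pair in pro-B, 22.6% (14.6 to 33.3) in pre-B, 24.2% (14.1 to 37.8) in immature B and 60.6% (50.1 to 70.9) in mature B. Summed, the pair was at 286, 361, 256 and 108 CPM, which turned the step from pro-B to pre-B to 1.26-fold (0.981 to 1.62) and that from immature to mature B to 2.37-fold (1.66 to 3.31) lower, and left mature B 2.65-fold (2.07 to 3.39) below pro-B. The summed T and NK cell markers lay highest in the same library as H2-Q7, at 205 CPM in pro-B, 8.33 in pre-B, 0 counts in immature B, where 3 counts would be 13.4 CPM, and 5.89 in mature B. Their part in this and the other pro-B levels was not tested.

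B2m, the light chain that every class I heavy chain needs, had 698, 133, 136 and 603 counts, or 804, 554, 609 and 710.0 CPM. The pro-B library was the highest, 1.45-fold (1.21 to 1.76) above pre-B and 1.13-fold (1.014 to 1.27) above mature B. Pre-B and immature B could not be told apart (1.10-fold, 0.859 to 1.41), nor could immature and mature B (1.17-fold, 0.967 to 1.42). Neither difference from pro-B reached the threshold in CPM. That between pro-B and mature B also depended on the scaling. Its log2 fold was -0.18 in CPM, -0.033 with TMM factors and -0.00055 with DESeq2 size factors. From pro-B to pre-B the log2 fold was -0.54 in CPM and -2.47 in deposited FPKM.

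Within the transporter, Tap1 and Tap2 differed in the pre-B library. Tap1 had 136, 32, 41 and 190 counts, or 157, 133, 183 and 224 CPM, and no step between adjacent stages had a counting interval without 1. Mature B was 1.43-fold (1.14 to 1.79) above pro-B. Tap2 had 60, 1, 11 and 87 counts, or 69.1, 4.16, 49.2 and 102 CPM. It fell from pro-B to pre-B to a ratio of 0.0602 (0.00150 to 0.349) and rose from pre-B to immature B at a ratio of 11.8 (1.72 to 509), both of which rest on 1 count in the pre-B library. The FPKM ratio of the latter step was 55.4. It rose again from immature to mature B by 2.08-fold (1.11 to 4.32), from 11 counts. Counts of Tap1 per count of Tap2 were 2.27 (1.66 to 3.12) in pro-B, 32.0 (5.35 to 1303) in pre-B, 3.73 (1.88 to 8.04) in immature B and 2.18 (1.69 to 2.85) in mature B, so that the intervals of pro-B, immature B and mature B overlapped and that of pre-B lay above those of pro-B and mature B.

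Among the loading proteins, Tapbp was called in no comparison in CPM and Calr was low in pre-B. Tapbp had 147, 35, 24.04 and 148 counts, or 169, 146, 108 and 174 CPM. It was 1.62-fold (1.05 to 2.61) higher in mature than in immature B cells, under the threshold, and the steps from pro-B to pre-B (0.860-fold, 0.577 to 1.25) and from pre-B to immature B (0.738-fold, 0.419 to 1.27) were within counting error. Calr, a calcium-binding chaperone that also serves glycoproteins other than class I, had 243, 30, 55 and 240 counts, or 280.0, 125, 246 and 283 CPM. It fell 2.24-fold (1.53 to 3.40) from pro-B to pre-B, a log2 fold of -1.16 that was -0.99 and no longer called with DESeq2 size factors. Immature B was 1.97-fold (1.24 to 3.19) above pre-B, just short of the call (reached with TMM factors and in FPKM), and mature B did not differ from pro-B by more than counting error (1.009-fold, 0.841 to 1.21).

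Nlrc5, the transactivator of the class I genes, was lowest in immature B cells. It had 236, 37, 8 and 159 counts, or 272, 154, 35.8 and 187 CPM. From pro-B to pre-B the ratio was 0.566 (0.389 to 0.804), under the threshold. It fell 4.30-fold (1.97 to 10.7) from pre-B to immature B and rose 5.23-fold (2.59 to 12.3) from immature to mature B, both against the 8 counts of the immature B library. Mature B was 1.45-fold (1.18 to 1.79) below pro-B in CPM, while their FPKM were 6.32 and 6.36. In the immature B library, where Nlrc5 was lowest, H2-K1 and H2-D1 were at 1244 and 825 CPM, against 1224 and 839.6 CPM in pre-B. There were 0.230 counts of Nlrc5 (0.199 to 0.266) per count of H2-K1 in pro-B, 0.126 (0.0869 to 0.178) in pre-B, 0.0288 (0.0123 to 0.0575) in immature B and 0.124 (0.105 to 0.146) in mature B. This ratio is formed within a library and does not depend on how libraries are scaled.

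The choice of scale moved some values in all 4 comparisons, and by far the most in 2 of them. The mRNA table held 23.7% of all mRNA and lncRNA counts in the pro-B and 23.5% in the mature B library, but 6.48% in the pre-B and 6.48% in the immature B library. The FPKM values deposited by the authors (fragments per kilobase of transcript, scaled to a fixed total of fragments) did not follow the mRNA totals. On that scale all genes tested had a median log2 fold of -2.18 from pro-B to pre-B and 1.99 from immature to mature B, and 10 of the 10 genes were at least 2-fold below pro-B in the FPKM of pre-B, as were 81.5% of all genes tested, and 10 of the 10 were at least 2-fold higher in mature than in immature B, as were 77.4%. With the counts of the mRNA and lncRNA tables together as the total, a scale chosen after the data had been seen, the same 10 and 10 were called, beside 83.5% and 79.7% of all genes. From pre-B to immature B, 2 genes were at least 2-fold higher in FPKM (Tap2 and Calr), beside 22% of all genes, and from pro-B to mature B 1 was (Tap2, at 2.59-fold), beside 15%. The direction of H2-K1 from pro-B to pre-B thus depended on the scale, at a log2 fold of 0.05 in CPM and -1.57 in FPKM, as did that of H2-T23 from immature to mature B, at -0.75 and 1.17. In the other 2 comparisons the medians over all genes hardly depended on it, at -0.02 in CPM and 0.02 in FPKM from pre-B to immature B, and -0.19 and -0.15 from pro-B to mature B.

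**Figure D2:**
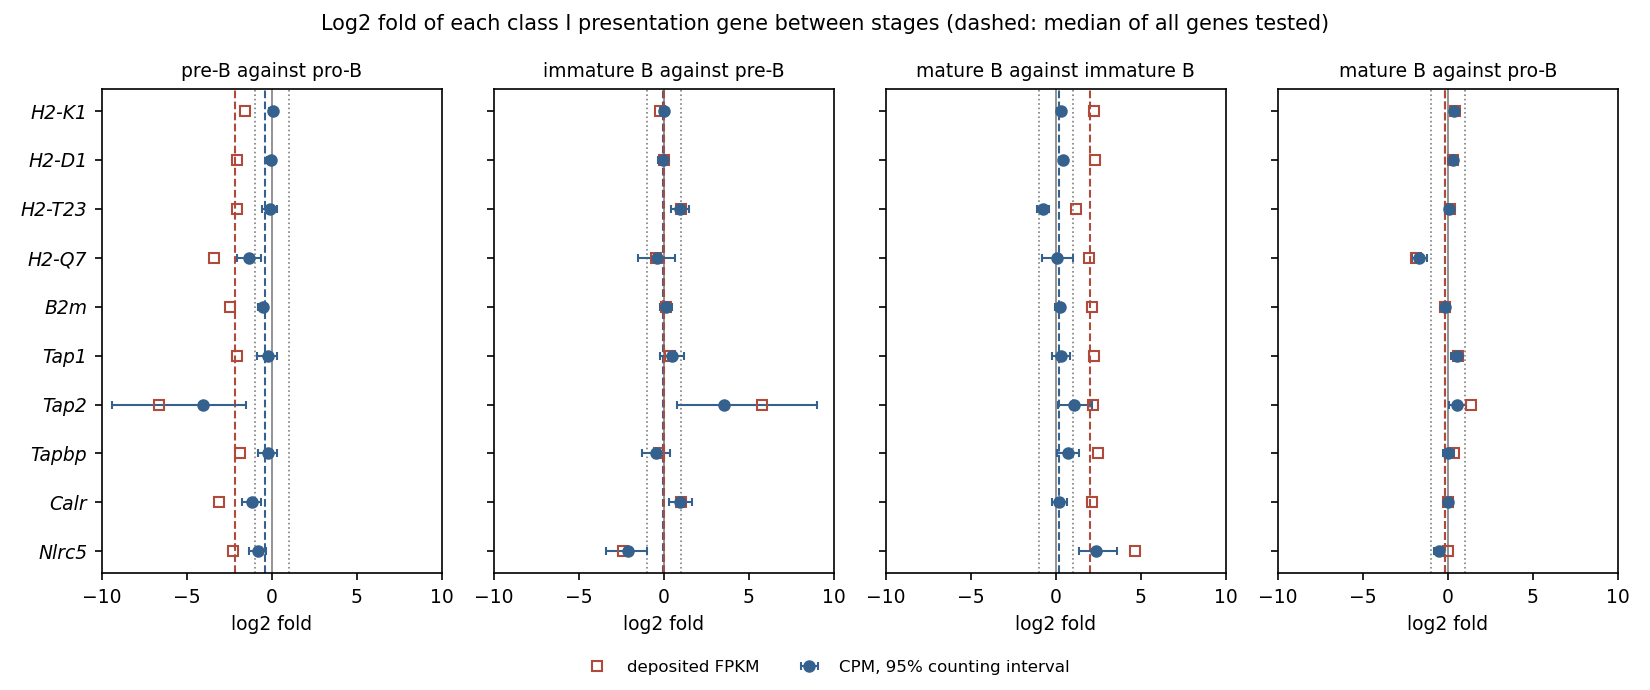
Log2 fold of each of the 10 genes in 4 comparisons of stages. Filled circles are CPM with their 95% counting interval, open squares the deposited FPKM, dotted lines the 2-fold threshold, and dashed lines the median of all genes tested on each scale (log2 CPM -0.37, -0.02, 0.19 and -0.19, left to right). Circles and squares part in the first and the third panel and lie closer together in the other panels, where they part most for Tap2 and, from pro-B to mature B, also for Nlrc5.

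The make-up of the class I counts within a library is free of that scale. The estimated counts of the 4 heavy chains include values that are not whole. How reads shared among similar genes were assigned was not tested. H2-K1 took 47.1% (45.0 to 49.2) of the counts of the 4 heavy chains in pro-B, 51.8% (47.7 to 56.0) in pre-B, 48.7% (44.5 to 52.9) in immature B and 51.8% (49.8 to 53.7) in mature B. H2-D1 took between 32.3% and 37.4%. Counts of H2-K1 per count of H2-D1 were 1.34 (1.22 to 1.47), 1.46 (1.21 to 1.75), 1.51 (1.25 to 1.83) and 1.38 (1.27 to 1.51), with all 4 intervals overlapping. H2-T23 took 9.37% (8.19 to 10.7) in pro-B, 9.14% (6.93 to 11.8) in pre-B, 16.5% (13.5 to 19.8) in immature B and 8.59% (7.52 to 9.77) in mature B, so that its high place in immature B held within the library. H2-Q7 took 8.30% (7.16 to 9.52) in pro-B, against 3.45% (2.17 to 5.40), 2.42% (1.35 to 4.08) and 2.24% (1.71 to 2.93) in the later stages. That share carries the doubt about reads shared with H2-Q6. The pair summed to 286 CPM in pro-B and 361 CPM in pre-B. B2m had 0.682 counts per count of H2-K1 (0.618 to 0.751) in pro-B, and 0.452 (0.366 to 0.557), 0.489 (0.396 to 0.603) and 0.470 (0.426 to 0.519) after it. The pro-B interval lay above the other 3.

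**Figure D3:**
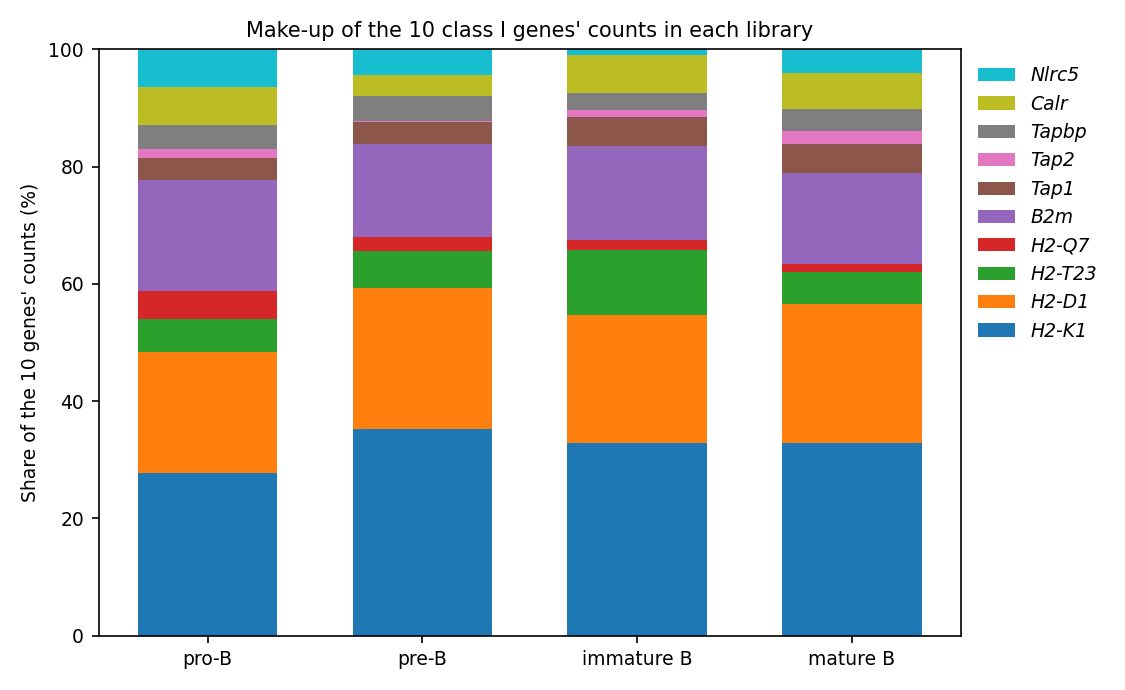
Share of each of the 10 genes in their summed counts in each library (percent, stacked to 100). H2-K1, H2-D1 and B2m fill most of every column, H2-T23 is widest in immature B (11.2%), H2-Q7 in pro-B (4.88%), and Nlrc5 thins to 0.946% in immature B. The split of reads between H2-Q7 and H2-Q6 is uncertain.

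Per transcript length, H2-K1 and B2m were the leading members at each stage. In FPKM, the pro-B library had B2m first at 149 and H2-K1 second at 128, while H2-K1 led at 43.0, 36.5 and 174 in the later libraries, with B2m at 26.9, 30.1 and 133. H2-D1 held the third place in each library, at 69.9, 17.1, 17.6 and 86.0. The lowest FPKM were those of Tap2 in pro-B (4.94) and pre-B (0.05) and of Nlrc5 in immature B (0.25) and mature B (6.32). H2-Q7, with its doubt about shared reads, went from the fourth place in pro-B (26.1) to the ninth in immature B (1.85) and mature B (7.17). These are levels within a library, and 1 library per stage gives no spread by which neighbouring places could be set apart.

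Further class I and class I-like heavy chains were sparsely counted. Of 22 listed genes, 18 were in the table and 7, 3, 6 and 8 met the count minimum in the comparisons of pre-B with pro-B, immature with pre-B, mature with immature B and mature with pro-B. Of these 1, 0, 3 and 1 were called higher and 3, 0, 2 and 1 lower, beside 14.8%, 18.9%, 24.2% and 13.2% higher and 29.2%, 20.2%, 18.1% and 24.2% lower of all genes tested. H2-Q4 was the most abundant, at 559, 579, 537 and 429 CPM, and no comparison of it reached 2-fold in CPM. In deposited FPKM it was not level, at 49.8, 13.5, 12.7 and 38.4. H2-Q6 was at 78.1, 279, 194 and 42.5 CPM. It rose 3.57-fold (2.50 to 5.06) from pro-B to pre-B and fell 4.56-fold (2.85 to 7.27) from immature to mature B, with the same doubt about shared reads as H2-Q7.

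Of 15 partners in peptide loading and trimming, 13 were tested in each comparison. From pro-B to pre-B, 7 were lower and 1 higher, beside 29.2% and 14.8% of all genes tested, with a median log2 fold of -1.05 beside -0.37 for all genes. At the next step 3 were higher and 2 lower, beside 18.9% and 20.2% of all genes, and from immature to mature B 2 were higher and 3 lower, beside 24.2% and 18.1%. Mature against pro-B had 0 higher and 3 lower, beside 13.2% and 24.2%. Hspa5 (BiP), the chaperone that binds newly made heavy chains, was at 749, 537, 644 and 698 CPM and passed the threshold nowhere in CPM. In deposited FPKM it was at 47.3, 8.59, 13.0 and 43.3. Lnpep (IRAP), an aminopeptidase that trims peptides in endosomes, was at 755, 221, 179 and 704 CPM, so that it fell 3.42-fold (2.58 to 4.62) from pro-B to pre-B and rose 3.94-fold (2.85 to 5.56) from immature to mature B. Tpp2, a cytosolic peptidase, fell 7.67-fold (3.05 to 30.0) to 4.19 counts in pre-B, rose 4.04-fold (1.39 to 17.7) in immature B and fell 2.83-fold (1.41 to 5.82) in mature B. Erap1, the peptidase of the endoplasmic reticulum, was at 0 counts in the first 3 libraries and 1.66 in the fourth.

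Of the immunoproteasome and its activator, 3 of 5 genes were tested, and Psmb9 and Psme2 were at or near 0 counts throughout. Psme1, a subunit of the activator, was at 96.8, 121, 197 and 82.4 CPM and fell 2.39-fold (1.60 to 3.53) from immature to mature B. Psmb10, a catalytic subunit, was at 85.3, 179, 143 and 80.1 CPM and rose 2.099-fold (1.41 to 3.10) from pro-B to pre-B. No gene of the 3 was called in the other 2 comparisons. Of all genes tested, 14.8% rose from pro-B to pre-B and 18.1% fell from immature to mature B. These calls are in CPM, and in deposited FPKM both genes went the other way. Psmb10 was at 12.8 FPKM in pro-B and 7.6 in pre-B, and Psme1 at 10.2 in immature B and 15.4 in mature B.

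Of 16 regulators of class I transcription, 7 were lower and 1 higher from pro-B to pre-B, then 5 of 13 tested higher and 1 lower in immature B, and 3 higher and 2 lower of 16 in mature B. Mature against pro-B had 0 higher and 2 lower. Of all genes tested in these comparisons, 29.2% were lower and 14.8% higher, then 18.9% higher and 20.2% lower, 24.2% higher and 18.1% lower, and 13.2% higher and 24.2% lower. The 16 include repressors as well as activators, so these counts give no direction for class I transcription. Irf8, an interferon regulatory factor of the B and myeloid lineages, was at 902, 246, 591 and 631 CPM. It fell 3.67-fold (2.82 to 4.87) from pro-B to pre-B and rose 2.40-fold (1.76 to 3.33) in immature B. Of the 5 plasmacytoid dendritic cell genes, 3 were also called lower from pro-B to pre-B, Siglech and Bst2 among them, while Ly6d rose, at 214, 903, 1307 and 260.2 CPM. The sum of these 5 genes went from 807 to 1037 CPM at the first step through Ly6d. Siglech, Ccr9 and Bst2 fell from 121, 161 and 298 CPM to 0, 58.3 and 74.9 CPM, and Cox6a2 from 10 counts to 0. What part such cells had in the level of Irf8 was not tested. Rfxank, a subunit of the RFX complex to which both NLRC5 and CIITA bind, was at 40.1, 106, 219 and 37.9 CPM. In CPM it rose 2.65-fold (1.55 to 4.59) and 2.07-fold (1.23 to 3.40) at the first steps and fell 5.78-fold (3.65 to 9.39) in mature B. In deposited FPKM it was at 1.77, 1.23, 2.58 and 1.69, so the direction from pro-B to pre-B depended on the scale.

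The 10 class II genes compared, among them the chains of the I-A and I-E molecules, the invariant chain Cd74 and the transactivator Ciita, summed to 1332, 819, 5167 and 17376 CPM. From immature to mature B 10 of 10 were called higher, as against 2 of the 10 class I genes in the same pair of libraries, and from pro-B to mature B 10 of 10 were higher, as against 0 of 10. Of all genes tested, 24.2% and 13.2% were higher in these comparisons. The median log2 fold from pro-B to mature B was 3.68 for class II and 0.07 for class I. These calls and folds are in CPM. In deposited FPKM, 10 of the 10 class I genes were also at least 2-fold higher from immature to mature B, as were 77.4% of all genes tested. From pro-B to mature B, 1 of the 10 was, beside 15% of all genes. Cd74 had 448, 90, 728 and 6355 counts, and rose 8.69-fold (6.98 to 10.9) from pre-B to immature B and 2.30-fold (2.13 to 2.48) from immature to mature B. H2-Ab1, the beta chain of I-A, had 208, 44, 141 and 2516 counts and stood 12.4-fold (10.7 to 14.3) higher in mature B than in pro-B. H2-Eb1, H2-DMa and H2-DMb2 were called at each step, lower in pre-B and then higher at both later steps, with 11, 6 and 2 counts in the pre-B library. From pro-B to pre-B the ratio was 0.323 (0.157 to 0.599) for H2-Eb1. For H2-DMa (0.481, 0.168 to 1.13) and H2-DMb2 (0.301, 0.0345 to 1.21) that step lay within counting error. Within libraries, H2-K1 had 2.29 counts per count of Cd74 (2.04 to 2.56) in pro-B and 3.27 (2.57 to 4.18) in pre-B, then 0.382 (0.331 to 0.439) in immature B and 0.202 (0.190 to 0.214) in mature B. Of the transactivators, Ciita had 43.4, 3.36, 2.84 and 563 counts where Nlrc5 had 236, 37, 8 and 159.

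**Figure D4:**
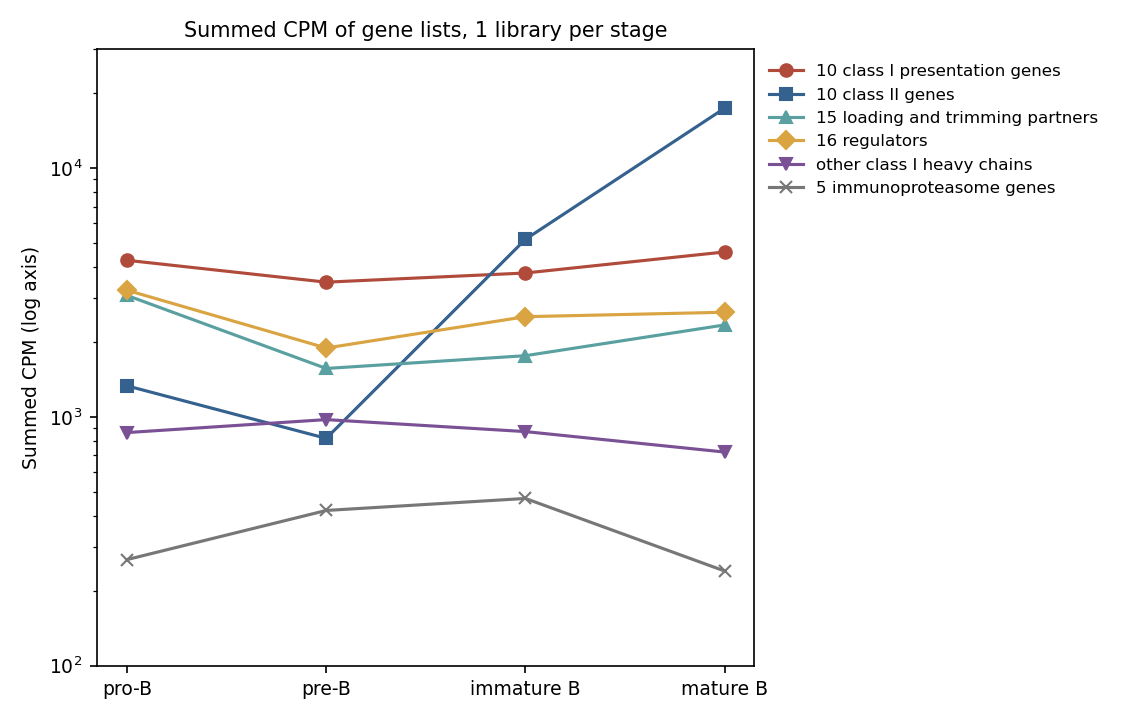
Summed CPM of 6 gene lists in the 4 libraries (log axis, 1 library per stage, lines join the stages). The 10 class I genes stay between 3476 and 4596 CPM, while the 10 class II genes go from 819 CPM in pre-B to 17376 CPM in mature B. The class II sum crosses above class I in immature B, at 5167 CPM, of which Cd74 alone holds 3257. CPM takes no account of transcript length.

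The genes nearest to the class I profile were sought among 188 genes with at least 100 counts in every library. The profile was the mean centred log2 CPM of the 8 members with at least 10 counts in each library, and read 0.19 in pro-B, -0.26 in pre-B, -0.05 in immature B and 0.13 in mature B. By Euclidean distance on that scale the nearest were Hspa5 (0.0469), Gnai2 (0.117), Rpl15 (0.148), Myo1c (0.157) and Mcl1 (0.213). Hspa5 had 650, 129, 144 and 593 counts, and Mcl1, an anti-apoptotic protein of the Bcl-2 family, 637, 108, 140 and 553. With 4 libraries this likeness is a description.

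Other readouts at these genes were few. The circRNA table listed 2 circles with Tapbp as source gene, both on the opposite strand to it. The first (chr17:33928735-33929180) had 0, 0, 2 and 4 back-spliced reads and the second (chr17:33929008-33929180) 0, 0, 4 and 0, in the order of the stages. The coordinates are those of the authors' table, for which the labels name mm9, and the circles would start 9257 and 9530 bases after the RefSeq start of Tapbp in GRCm38.p6. The lncRNA table held transcripts under the symbols of 4 members. That of H2-K1 had 20.8, 2.14, 2.11 and 20.1 counts, 1 of Tapbp 17.6, 2.84, 12.2 and 22.3, and 1 of Tap2 1.75, 0, 2.53 and 8.50. Of 2 transcripts of Nlrc5, 1 had 3.76 counts in mature B and 0 elsewhere, and the other 0 in each library, as had a further one of Tapbp. In the immature B library, the Tapbp transcript thus had 12.2 counts beside 24.04 for the gene in the mRNA table, and the Tap2 transcript 2.53 beside 11.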

How the data were processed

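Estimated counts and FPKM per gene, as deposited by the authors, were made from reads cleaned with fastp, depleted of rRNA reads with Bowtie2, mapped with HISAT2 and quantified with StringTie. The estimated counts deposited by the authors carry no normalization and need not be whole. The circRNA counts deposited by the authors are back-spliced reads found with find_circ, with at least 2 reads in 1 library. The labels name mm9 as the build. Columns were assigned to stages by the labels, and of the 8 samples the 4 rRNA-depleted RNA libraries were used. The small RNA libraries were not used here.

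CPM was the count over the column total (223495 to 867920). A gene was called at 2-fold or more, with counts under 3 raised to 3, among genes with at least 10 counts in 1 of 2 libraries. Intervals are exact at 95% (Poisson for levels, Clopper-Pearson for shares, conditional binomial for folds), cover counting error only and treat rounded counts as independent fragments. With 1 library per stage no test was run. Alternatives were edgeR 4.0.16 TMM factors and DESeq2 1.42.0 size factors on rounded counts, FPKM, other count minimums, and sums without immunoglobulin and mitochondrial genes or without B2m. A scaling by mRNA and lncRNA counts and the sum of H2-Q6 and H2-Q7 were added after the data had been seen. Python 3.11.15, pandas 2.3.3, scipy 1.17.1 and R 4.3.3 were used.

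The genes named were all 10 members, the 2 genes of highest summed CPM in each compared list with those called at each of the 3 steps, and the 5 genes nearest in profile. A gene that this rule names is not reported here. Ciita, Erap1, Psmb9, Psme2 and H2-M3, named beside this rule, were chosen after their values were seen. H2-Q8 and H2-Q9 were named only as absent. The members, lists and markers were chosen with earlier results of these data known.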

Additional observations from a re-analysis of the deposited data

How the results depend on the processing

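Most of the values that moved did so with the scale of the libraries, and fewer with the count minimum and with the sum of H2-Q6 and H2-Q7. In deposited FPKM, the members at least 2-fold lower from pro-B to pre-B went from 3 to 10 and those higher from immature to mature B from 2 to 10, and the same 10 and 10 were reached on the mRNA and lncRNA counts together. The fold of the summed members became 0.232 (FPKM) or 0.223 (mRNA and lncRNA counts) from pro-B to pre-B, in place of 0.817, and 4.45 or 4.41 from immature to mature B, in place of 1.21. With DESeq2 size factors the sum was 0.925-fold from pro-B to pre-B and 1.22-fold from pro-B to mature B, and with TMM factors the latter was 1.20-fold, in place of 1.08. Against pre-B, 2 members were higher in immature B under TMM factors and 2 in FPKM, in place of 1, and with at least 50 counts in 1 library 0 were higher and 0 lower, since Tap2 and Nlrc5 then missed the minimum. From pro-B to mature B, 1 member was higher in FPKM, in place of 0. H2-Q7 from pro-B to pre-B reversed when summed with H2-Q6, to a log2 fold of 0.34 from -1.35.

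Depth limited the pre-B and immature B libraries, where 3 counts are 12.5 and 13.4 CPM, against 3.46 in pro-B and 3.53 in mature B. Each stage was 1 pool of 3 mice in 1 library, so differences between stages and between libraries cannot be told apart. No paired analysis was possible because each group holds 1 library and no test was run.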
